A study of Homo sapiens with 36 samples.

Results

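Expression of 43 genes of homologous recombination, the Fanconi anemia pathway and the DNA damage checkpoint was followed in 3 human melanoma cell lines under BRAF and MEK inhibition, with and without induction of the nuclear receptor NR2F1. The genes were chosen by name, with earlier results of these data known. Each was found in 1 of the 60656 gene entries of every library, and all 43 passed the filter on low values in every fit. The lines were A375TR-NR2F1, 1205LuTR-NR2F1 and WM793TR-NR2F1 (A375, 1205Lu and WM793 in what follows). They are BRAF-mutant, and the cells of all 4 groups hold the Tet repressor with a cDNA of NR2F1 that responds to doxycycline (DOX). The DMSO group received vehicle for 72 hours. The DMSO + DOX group received 100 ng/mL DOX for 24 hours beforehand and during those 72 hours. The BRAFi + MEKi group received 1 μmol/L of the BRAF inhibitor PLX4720 and 35 nmol/L of the MEK inhibitor PD0325901 for 72 hours, and the BRAFi + MEKi + DOX group received the inhibitors together with DOX on the schedule above. This schedule is that of the sample labels. The study's methods describe 24 hours with DOX after seeding without setting groups apart, so whether the groups without DOX had it in that time cannot be told from these sources. Each group had 3 replicate RNA-Seq libraries, which gives 36 in all, and the study describes its in vitro replicates as independent experiments. DOX was given only to cells with the NR2F1 cDNA, so effects of DOX and of NR2F1 cannot be told apart. 1205Lu and WM793 cells were grown in a different medium from A375 cells, so cell line and medium cannot be told apart where A375 is set against the other lines.

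Homologous recombination repairs a broken chromosome by copying the sister chromatid. The ends are cut back to single strands, a recombinase is loaded on them with the help of the BRCA proteins, and partner proteins drive the search for the matching sequence. The Fanconi pathway detects crosslinks between DNA strands, marks them by attaching ubiquitin to FANCD2 and FANCI, and hands the breaks that follow to recombination. The checkpoint kinases ATM and ATR sense breaks and stalled forks and hold the cell cycle through CHEK2 and CHEK1. Many of these genes are transcribed most in cells that replicate their DNA, partly through E2F factors, while others, such as those of the break sensor MRE11, RAD50 and NBN, are expressed throughout the cycle.

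The promoters of 6 of the genes are printed because the genes moved together or, in the case of RAD50, was called in no comparison of treatments within a line. Promoter sequences were taken from RefSeq on GRCh38.p14 as windows of 300 bases, from 250 bases before the start of transcription to 50 after it, and are written 5′ to 3′ on the strand of the gene. Capitals mark a match to the letters TTTCCCGC, TTTGGCGC, TTTCGCGC or TTTGCCGC, which resemble the binding site of E2F factors, on either strand. FANCD2 lies at chr3:10026187-10026486 (plus strand), CLSPN at chr1:35769929-35770228 (minus strand), EXO1 at chr1:241847954-241848253 (plus strand) and XRCC2 at chr7:152676092-152676391 (minus strand). RAD54L at chr1:46247438-46247737 (plus strand) and RAD50 at chr5:132556727-132557026 (plus strand) held none of these letters in the window.
FANCD2: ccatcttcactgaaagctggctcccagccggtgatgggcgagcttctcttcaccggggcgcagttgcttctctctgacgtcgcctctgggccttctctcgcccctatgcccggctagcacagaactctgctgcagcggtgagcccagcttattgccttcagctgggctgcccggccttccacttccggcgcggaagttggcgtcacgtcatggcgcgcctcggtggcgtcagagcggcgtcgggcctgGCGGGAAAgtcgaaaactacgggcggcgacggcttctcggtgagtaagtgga
CLSPN: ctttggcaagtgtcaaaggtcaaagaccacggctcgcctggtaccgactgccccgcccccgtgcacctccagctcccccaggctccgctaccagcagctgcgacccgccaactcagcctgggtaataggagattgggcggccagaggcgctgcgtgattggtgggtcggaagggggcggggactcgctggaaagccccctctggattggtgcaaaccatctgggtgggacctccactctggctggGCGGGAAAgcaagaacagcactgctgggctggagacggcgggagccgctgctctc
EXO1: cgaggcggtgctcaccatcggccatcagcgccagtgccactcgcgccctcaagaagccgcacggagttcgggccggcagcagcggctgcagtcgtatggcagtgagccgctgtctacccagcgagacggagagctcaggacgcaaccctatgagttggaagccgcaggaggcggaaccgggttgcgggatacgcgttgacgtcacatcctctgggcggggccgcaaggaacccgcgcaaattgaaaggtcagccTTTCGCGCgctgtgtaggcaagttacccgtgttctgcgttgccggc
XRCC2: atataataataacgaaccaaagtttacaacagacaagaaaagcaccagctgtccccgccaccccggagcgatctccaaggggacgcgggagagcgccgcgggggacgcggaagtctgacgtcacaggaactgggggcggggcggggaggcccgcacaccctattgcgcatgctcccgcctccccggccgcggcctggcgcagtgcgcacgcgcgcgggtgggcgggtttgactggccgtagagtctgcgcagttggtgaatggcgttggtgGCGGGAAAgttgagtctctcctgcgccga
RAD54L: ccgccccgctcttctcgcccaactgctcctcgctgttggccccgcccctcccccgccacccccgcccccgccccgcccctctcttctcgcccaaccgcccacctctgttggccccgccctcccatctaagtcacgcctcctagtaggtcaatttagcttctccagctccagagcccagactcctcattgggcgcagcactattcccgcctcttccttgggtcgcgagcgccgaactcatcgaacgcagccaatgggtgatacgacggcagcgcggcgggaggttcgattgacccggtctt
RAD50: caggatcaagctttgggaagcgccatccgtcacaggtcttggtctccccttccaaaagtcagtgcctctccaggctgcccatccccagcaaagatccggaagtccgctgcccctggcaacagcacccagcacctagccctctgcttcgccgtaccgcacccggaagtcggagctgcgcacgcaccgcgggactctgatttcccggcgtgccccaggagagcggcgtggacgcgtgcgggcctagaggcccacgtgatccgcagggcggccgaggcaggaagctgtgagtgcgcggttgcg

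Of the 43 genes, 39 had a promoter in the table, and RAD54B, FANCI, NBN and DNA2 had none. The E2F letters were in 10 of the 39 windows (25.6%) and in 1164 of all 35116 promoters of the table (3.31%). They were in 8 of the 22 windows (36.4%) of genes that were lower with BRAFi + MEKi in both 1205Lu and A375 cells, a group described below, and in 2 of the other 17 (11.8%), those of FANCC and PMS2. CHR letters (TTTGAA or TTCGAA, on either strand), which resemble an element of genes expressed late in the cell cycle, were in 3 of the 39 windows (7.69%) and in 16.4% of all promoters. They were in 1 of the same 22 windows (4.55%) and in 2 of the other 17 (11.8%). CCAAT on either strand was in 19 of the 39 (48.7%) and in 34.6% of all promoters, with 12 of the 22 (54.5%) and 7 of the other 17 (41.2%). Shares of all promoters count every entry of the table, whether or not its gene is expressed here, while 1 window was taken per gene of the 39. A match is a description of the letters, and no factor binding was measured here.

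The deposited values are normalized expression, which is not a read count, and their totals ranged from 27027824 to 34621958 (median 30838343). Depth, estimated as reads from the commonest low value of each library, ranged from 6600000 to 60300000 with a median of 29950000. The shallowest library was WM793 DMSO replicate 1, with 16636 genes above 0 against 19565 and 18887 in its group. It belongs to the baseline of the WM793 comparisons against DMSO. Across genes, log2 values of replicate libraries correlated with r between 0.967 and 0.987. NR2F1 was higher with DOX under BRAFi + MEKi in each line, by 3.33, 4.99 and 4.14 on the log2 scale in 1205Lu, WM793 and A375 cells (adjusted p = 0.0049, 0.0038 and 6.7e-06). With DOX under DMSO it was higher in A375 by 5.49 (adjusted p = 3.3e-07) and in WM793 by 6.39 (adjusted p = 0.00080), but in 1205Lu the log2 fold change of 1.93 was not called (adjusted p = 0.41). NR2F1 values in 1205Lu were 20699, 9155 and 9270 with DOX against 6273, 2182 and 2327 in DMSO, without overlap. DUSP6, a feedback phosphatase of the MAPK pathway, was lower with BRAFi + MEKi by log2 fold changes of -4.09, -2.25 and -3.13. Of 6 melanocytic markers, 4 had a mean of at least 10 in each line, while MLANA and TYR were under 10 in every line and listed at 0 in 1205Lu and WM793. Leukocyte markers summed to at most 3.07 in 1205Lu, 91.0 in WM793 and 28.1 in A375 libraries, and epithelial markers to 244 to 1045, 3.88 to 14.7 and 2581 to 24955.

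Some libraries stood apart over these genes. 1205Lu BRAFi + MEKi replicate 1 was the lowest of its group for 37 of the 43 genes, WM793 BRAFi + MEKi + DOX replicate 2 for 35, and A375 BRAFi + MEKi + DOX replicate 3 was the highest of its group for 35. The median coefficient of variation over the genes was 25.0% in the 1205Lu BRAFi + MEKi group and between 9.16% and 17.7% in the other 11 groups.

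In DMSO, the genes differed widely in level per kilobase of merged exons. TOPBP1, which activates ATR, had the highest mean level per kilobase in 1205Lu (524) and WM793 (487) cells, and PSMC3IP, a recombinase partner, in A375 cells (408). The lowest were BRIP1, a helicase that binds BRCA1, in 1205Lu (15.6), RAD51B in WM793 (16.1) and FANCM in A375 (16.0). FANCL ranked near the bottom by this measure in WM793 (16.9) on a merged exon length of 37977 bases, so the levels per kilobase depend on the annotation.

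DMSO levels of part of the genes differed between lines. Set against WM793, 5 genes were higher and 7 lower in 1205Lu, where 16.2% and 14.5% of the 26779 genes tested were called. A gene is called here and in what follows where limma's moderated test on log2(value + 1) gave a Benjamini-Hochberg adjusted p under 0.05 over all genes tested. Against A375, 8 were higher and 5 lower in 1205Lu (19.4% and 27.4% of all genes). WM793 had 16 higher and 6 lower than A375 (18.7% and 28.8% of all genes). Apart from the genes higher in WM793 than in A375, these counts are shares near or under those of all genes. With libraries rescaled to the same total, the 16 and 6 became 12 higher and 12 lower, and the 8 and 5 of 1205Lu against A375 became 6 and 9. The mismatch repair endonuclease subunit PMS2 showed the most extreme of these differences. Its values in DMSO were 2480, 2917 and 2999 in WM793, 1177, 1208 and 1734 in 1205Lu, and 1129, 1082 and 986 in A375. The WM793 libraries were above all those of the other lines, and the log2 difference was 1.39 against A375 (SE 0.14, adjusted p = 1.5e-09), and it was -1.05 for 1205Lu against WM793 (SE 0.14, adjusted p = 6.2e-07). PMS2 has many named pseudogene copies with which the counting could share reads. FANCL, the catalytic subunit of the Fanconi ubiquitin ligase, stood at 1133, 1183 and 1191 in A375, at 624, 646 and 654 in 1205Lu and at 563, 704 and 657 in WM793. Every A375 library was higher, with a log2 difference of -0.87 for each of the other lines against A375 (adjusted p = 1.2e-06 and 1.1e-06). FANCF, an adaptor of the same ligase, had the lower level in A375, at 327, 312 and 350 against 663, 765 and 650 in 1205Lu cells (log2 difference 1.07, SE 0.14, adjusted p = 2.5e-07).

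**Figure D1:**
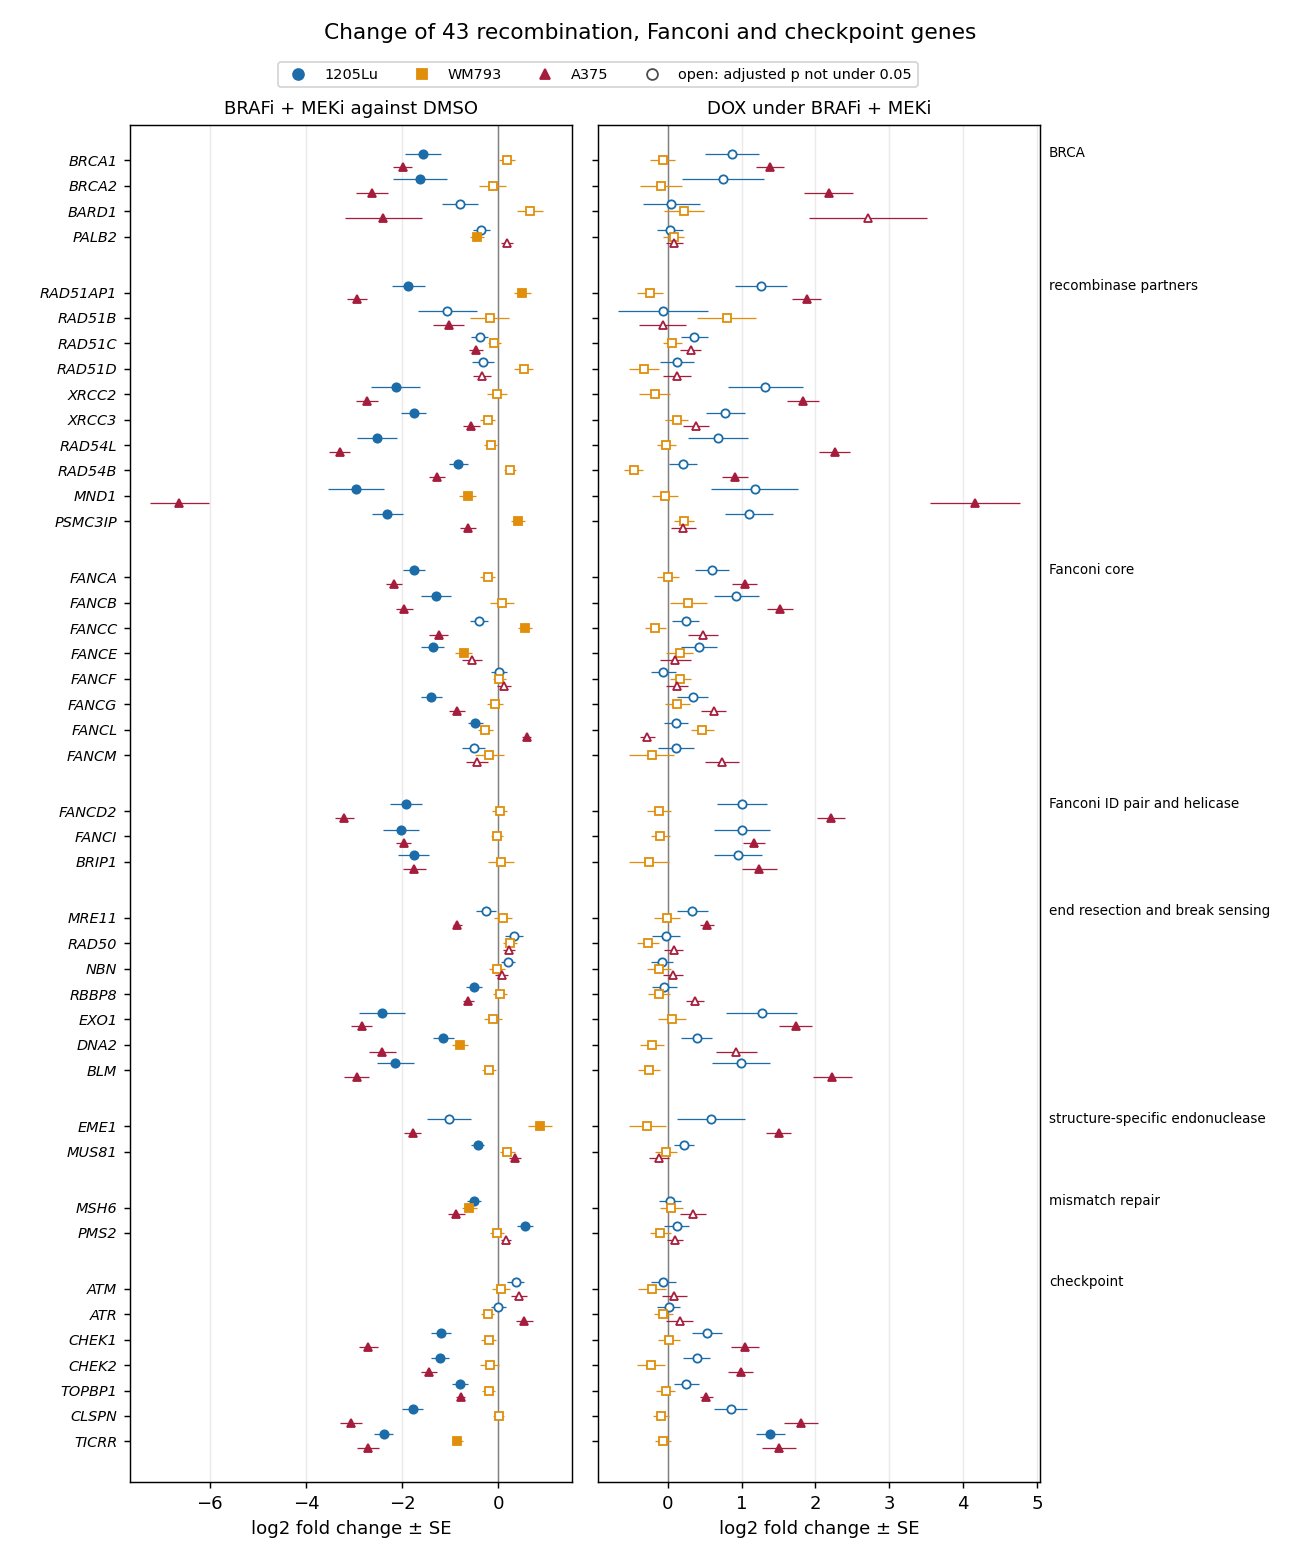
Log2 fold changes of the 43 genes, grouped by role, for BRAFi + MEKi against DMSO and for BRAFi + MEKi + DOX against BRAFi + MEKi in each line, with bars for the SE and open symbols where the adjusted p was not under 0.05. Values lie mostly below 0 for the inhibitors in 1205Lu and A375 (medians -1.14 and -1.24) and near 0 in WM793 (-0.03), and above 0 for DOX under the inhibitors in A375 (0.73).

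BRAFi + MEKi lowered most of the genes in 1205Lu and A375 cells and few of them in WM793 cells. In 1205Lu cells 28 of the 43 genes were lower and 1 was higher, where 14.4% and 16.5% of all genes tested were called in those directions. In A375 cells 31 were lower and 3 higher, where 19.0% and 20.5% of all genes were called. In WM793 cells 6 were lower and 4 higher, where 16.9% and 20.4% of all genes were called, shares no smaller than those of the 43 genes. The median log2 fold change of the 43 genes was -1.14 in 1205Lu, -1.24 in A375 and -0.03 in WM793, where the medians of all genes tested were 0.11, 0.06 and 0.15. Every inhibitor library was below every DMSO library for 33 genes in A375, 31 in 1205Lu and 11 in WM793, where 24.7%, 19.3% and 19.9% of all genes did so. The reverse held for 5, 2 and 6 genes in the same order, where 27.5%, 24.1% and 25.5% of all genes did. A fall of at least 4-fold was measured for 8 genes in 1205Lu, 14 in A375 and none (0) in WM793, and the share of all genes is not given for it. With each library left out in turn, only MND1 and TICRR kept such a fall in 1205Lu (smallest log2 changes -2.01 and -2.14). The smallest changes of RAD54L, PSMC3IP, EXO1, BLM, FANCI and XRCC2 were -1.88, -1.80, -1.58, -1.56, -1.47 and -1.32. The same 25 genes were called lower in 1205Lu and in A375, which is 25 of the 28 and 25 of the 31, and these lines share no libraries. Only MND1, DNA2, MSH6 and TICRR were called lower in all 3 lines.

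**Figure D2:**
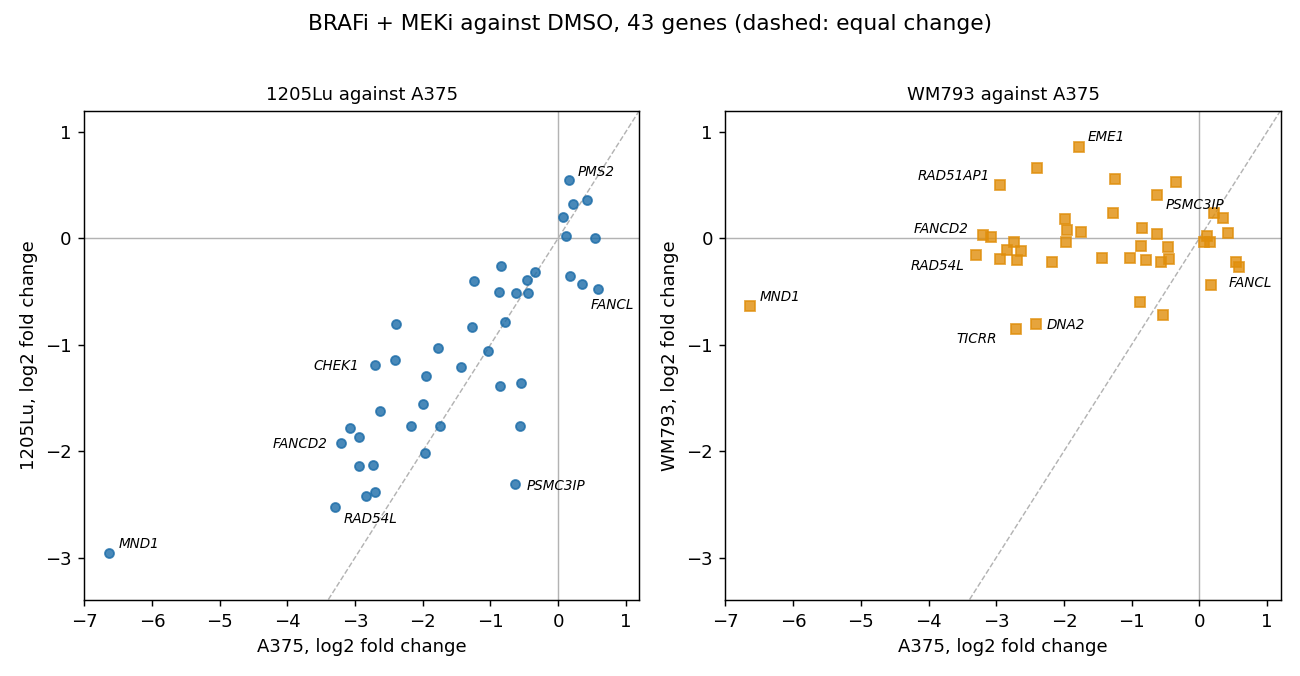
Log2 fold changes with BRAFi + MEKi in 1205Lu (left) and WM793 (right) against those in A375, 1 point per gene, with the line of equal change dashed. MND1 fell the furthest in A375 (-6.63), PSMC3IP fell further in 1205Lu (-2.31) than in A375 (-0.63), and the WM793 values run from -0.85 to 0.86.

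Among the BRCA proteins, BRCA1, a ubiquitin ligase that promotes the cutting back of broken ends, read 1337, 1475 and 1718 in DMSO and 210, 841 and 740 with BRAFi + MEKi in 1205Lu cells. In A375 cells it read 1853, 1475 and 1757 in DMSO and 390, 580 and 335 with BRAFi + MEKi. The groups did not overlap in either line, and the log2 fold changes were -1.56 (SE 0.37, adjusted p = 0.0057) and -1.99 (SE 0.19, adjusted p = 2.6e-06). With a library left out, the change in 1205Lu ran from -1.93 to -0.93 and stayed called. In WM793 cells the values were 1766, 1830 and 1851 in DMSO and 2231, 1753 and 2213 with BRAFi + MEKi, which overlap (log2 fold change 0.18, adjusted p = 0.44). BRCA2, which loads the recombinase, went from 395, 451 and 309 to 73.5, 44.5 and 68.6 in A375 cells, a fall by 2.63 on the log2 scale (SE 0.33, adjusted p = 2.6e-05). In 1205Lu cells its BRAFi + MEKi values were 105, 615 and 177 and overlapped those in DMSO (440, 983 and 777), with a log2 fold change of -1.62 and an adjusted p of 0.042. PALB2, which bridges BRCA1 and BRCA2, was lower in WM793 alone among the lines tested (-0.44, adjusted p = 0.024) and BARD1, the partner of BRCA1, in A375 alone (-2.39, adjusted p = 0.029). The BRCA2 call in 1205Lu and those of PALB2 and BARD1 were lost when 1 library was left out or under another setting.

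Of the recombinase partners, 7 of 10 were lower in 1205Lu and 9 of 10 in A375, among them the single genes with the largest falls, MND1 and RAD54L. RAD54L, a motor protein that works with the recombinase, lies on chromosome 1 from 46246461 to 46278480. Its values in 1205Lu cells were 851, 1000 and 891 in DMSO and 63.8, 210 and 293 with BRAFi + MEKi, and in A375 cells 750, 666 and 876 in DMSO and 67.7, 58.9 and 111. All inhibitor libraries were below all DMSO libraries, and the fold was 5.74 in 1205Lu (log2 fold change -2.52, SE 0.41, adjusted p = 0.00042) and 9.85 in A375 (-3.30, SE 0.21, adjusted p = 6.6e-08). With a library left out, the log2 fold change in 1205Lu ran from -2.97 to -1.88. In WM793 cells RAD54L read 735, 878 and 842 in DMSO and 743, 697 and 755 with BRAFi + MEKi, which overlap (-0.16 on the log2 scale, SE 0.13, adjusted p = 0.37). RAD54L shares 813 exon bases with LRRC41 on the other strand, and the library kit keeps no strand information. RAD51AP1, which stimulates strand pairing, fell by 1.87 in 1205Lu (adjusted p = 0.0012) and by 2.94 in A375 (adjusted p = 1.3e-07). In WM793 cells it was higher instead, at 1108, 964 and 1197 against 604, 862 and 869 in DMSO, without overlap (log2 fold change 0.50, SE 0.18, adjusted p = 0.043). That call in WM793 did not hold in every setting and with each library left out.

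MND1 and PSMC3IP form a pair that is best known from meiosis, and they did not move alike. MND1, on chromosome 4 from 153344649 to 153415118, read 270, 310 and 263 in DMSO and 1.89, 0 and 6.95 with BRAFi + MEKi in A375 cells. The inhibitor libraries were all near 0, so the size of the change depends on the pseudocount, which was -6.63 on the log2 scale at a pseudocount of 1 (SE 0.61, adjusted p = 1.9e-06) and -7.97 at 0.1. In 1205Lu cells MND1 went from 276, 497 and 386 to 12.1, 115 and 74.2 (-2.96, SE 0.59, adjusted p = 0.0020), and in WM793 cells from 484, 434 and 451 to 276, 297 and 307 (-0.64, SE 0.18, adjusted p = 0.011). PSMC3IP went from 690, 706 and 735 to 70.2, 213 and 194 in 1205Lu cells, a fall by 2.31 (SE 0.32, adjusted p = 0.00013). In A375 cells it went from 999, 925 and 1229 to 759, 716 and 561, a fall by 0.63 (SE 0.17, adjusted p = 0.0091). In WM793 cells it was higher with the inhibitors, at 708, 672 and 894 against 614, 506 and 580 (0.41, SE 0.14, adjusted p = 0.036). The groups did not overlap in any of these 3 lines for either gene. In WM793 neither call held in every setting and with each library left out. Among the recombinase paralogs, XRCC2 fell in 1205Lu and A375 (-2.13 and -2.73) and RAD51D was called lower in no line.

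In the Fanconi pathway, the ubiquitin target pair and the helicase BRIP1 were lower as a group of 3 of 3 in 1205Lu and in A375, and 0 of 3 in WM793. FANCD2 lies on chromosome 3 from 10026370 to 10101932 and read 1257, 2202 and 1822 in DMSO and 214, 623 and 689 with BRAFi + MEKi in 1205Lu cells. The A375 values were 1319, 1387 and 1295 in DMSO and 185, 119 and 135 with BRAFi + MEKi. In both lines every inhibitor library was under every DMSO library, with log2 fold changes of -1.92 (SE 0.34, adjusted p = 0.00088) and -3.20 (SE 0.19, adjusted p = 3.7e-08). WM793 cells gave 1846, 1566 and 2211 in DMSO and 1953, 1862 and 1876 with BRAFi + MEKi, which overlap (0.03 on the log2 scale, SE 0.16, adjusted p = 0.90). FANCI, its partner, fell by 2.02 in 1205Lu and by 1.97 in A375, and BRIP1 by 1.76 and 1.75.

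The 8 genes of the Fanconi core, which make up the ubiquitin ligase and its anchor, were more mixed, with 5 lower in 1205Lu, 4 lower and 1 higher in A375, and 1 lower and 1 higher in WM793. The counts of 1 are no larger shares than those of all genes (20.5% higher in A375, 16.9% lower and 20.4% higher in WM793). FANCA fell in 1205Lu (-1.76, adjusted p = 9.5e-05) and A375 (-2.17, adjusted p = 4.8e-07), although it shares 2409 exon bases with ZNF276. FANCL went the other way in A375 cells, from 1133, 1183 and 1191 in DMSO to 1774, 1832 and 1686 with BRAFi + MEKi. All 3 inhibitor libraries were above the DMSO libraries (log2 fold change 0.59, SE 0.10, adjusted p = 0.00038). In 1205Lu cells FANCL went from 624, 646 and 654 to 399, 451 and 535, also without overlap but downward (-0.48, SE 0.16, adjusted p = 0.038), a call that was lost under other settings. FANCC was lower in A375 (-1.24, adjusted p = 0.00027) and higher in WM793 (0.56, adjusted p = 0.0062). FANCF and FANCM were called in no line.

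Of the 7 genes of break sensing and end resection, 4 were lower in 1205Lu, 1 in WM793 and 5 in A375. Of all genes tested, 14.4%, 16.9% and 19.0% were lower in these lines, so the count in WM793 is no larger a share. The break sensor genes RAD50 and NBN were called in no line, while MRE11 of the same complex fell in A375. RAD50 read 2934, 2044 and 3191 in DMSO and 3440, 2773 and 3887 with BRAFi + MEKi in 1205Lu cells. In A375 cells RAD50 read 3386, 2970 and 2855 in DMSO and 3738, 3631 and 3357 with BRAFi + MEKi. These groups overlap in both lines (log2 fold changes 0.32 and 0.22, adjusted p = 0.23 and 0.20), and RAD50 shares 8124 exon bases with a neighboring gene model. RAD50 passed the test in WM793 (0.45) and A375 (0.38) only after libraries were rescaled to the same total. EXO1, an exonuclease that cuts ends back over long distances, went from 1045, 1297 and 1549 to 74.7, 462 and 395 in 1205Lu (-2.42, SE 0.48, adjusted p = 0.0018) and from 1423, 1225 and 1314 to 148, 238 and 173 in A375 (-2.84, SE 0.22, adjusted p = 4.0e-07). In WM793 cells EXO1 read 1371, 1517 and 1484 in DMSO and 1466, 1202 and 1390 with BRAFi + MEKi, which overlap (-0.11, adjusted p = 0.67). The helicase BLM fell by 2.14 and 2.94 in 1205Lu and A375. DNA2, a nuclease and helicase, fell in all 3 lines, by 1.14, 0.80 and 2.41 in 1205Lu, WM793 and A375 (adjusted p = 0.0012, 0.0014 and 1.6e-05). RBBP8, which starts resection with MRE11, changed by -0.51 in 1205Lu (adjusted p = 0.041) and by -0.62 in A375 (adjusted p = 0.00083), and MRE11 fell in A375 by 0.85.

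EME1 and MUS81 form an endonuclease that cuts joined DNA molecules, and each was called in opposite directions in 2 lines. EME1 read 811, 844 and 697 in DMSO and 166, 269 and 262 with BRAFi + MEKi in A375 cells, a fall by 1.78 (SE 0.17, adjusted p = 3.0e-06). In WM793 cells it read 444, 681 and 738 in DMSO and 982, 1045 and 1303 with BRAFi + MEKi, higher in every inhibitor library (0.86, SE 0.25, adjusted p = 0.014). MUS81 changed by -0.43 in 1205Lu (adjusted p = 0.036) and by 0.35 in A375 (adjusted p = 0.040), and shares 759 exon bases with CFL1. The EME1 call in WM793 and both MUS81 calls were lost with a library left out or under another setting. Of the mismatch repair genes, MSH6, which recognizes mismatches, was lower in 1205Lu, WM793 and A375 by 0.50, 0.60 and 0.87, and PMS2 was higher in 1205Lu (0.55, adjusted p = 0.022). Among these mismatch repair calls, only that of MSH6 in A375 held in every setting and with each library left out.

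Of the checkpoint genes, the apical kinases ATM and ATR were not called lower in any line, with ATM at 3647, 2687 and 4094 in DMSO and 4311, 4345 and 4536 with BRAFi + MEKi in 1205Lu cells. Every inhibitor library was above the DMSO libraries, yet the change was not called (log2 fold change 0.36, adjusted p = 0.13). ATR was higher in A375, at 1750, 1710 and 1407 against 1145, 1216 and 975 in DMSO (0.54, SE 0.18, adjusted p = 0.026). The ATR call held in every setting, but in only 2 of the 6 fits with a library left out. CHEK1, the effector kinase of ATR, went from 1154, 1102 and 1414 to 364, 598 and 698 in 1205Lu cells and from 1551, 1619 and 1766 to 227, 235 and 300 in A375 cells. Both changes were without overlap, by log2 fold changes of -1.19 (SE 0.20, adjusted p = 0.00064) and -2.70 (SE 0.19, adjusted p = 1.9e-07). CLSPN, the adaptor that lets ATR act on CHEK1, went from 1599, 1234 and 1897 to 354, 515 and 506 in 1205Lu (-1.78, adjusted p = 5.4e-05) and from 1202, 1117 and 1390 to 121, 122 and 210 in A375 (-3.07, adjusted p = 2.6e-07). In WM793 cells CLSPN read 1727, 2022 and 2070 in DMSO and 1918, 1861 and 2077 with BRAFi + MEKi (0.01, SE 0.11, adjusted p = 0.96). CHEK2, the effector of ATM, fell by 1.21 in 1205Lu and by 1.44 in A375, and TOPBP1 by 0.79 and 0.78.

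TICRR, needed to start replication at origins and for the checkpoint before mitosis, lies on chromosome 15 from 89575469 to 89631056. It read 909, 892 and 986 in DMSO and 128, 216 and 203 with BRAFi + MEKi in 1205Lu, 1412, 1170 and 1314 and then 710, 778 and 675 in WM793, and 752, 773 and 785 and then 82.8, 118 and 162 in A375. No groups overlapped, and the log2 fold changes were -2.38 (SE 0.20), -0.85 (SE 0.11) and -2.71 (SE 0.23), with adjusted p = 2.0e-06, 6.1e-05 and 7.4e-07. Among genes called lower in all 3 lines, TICRR and DNA2 held in every setting and with every library left out.

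**Figure D3:**
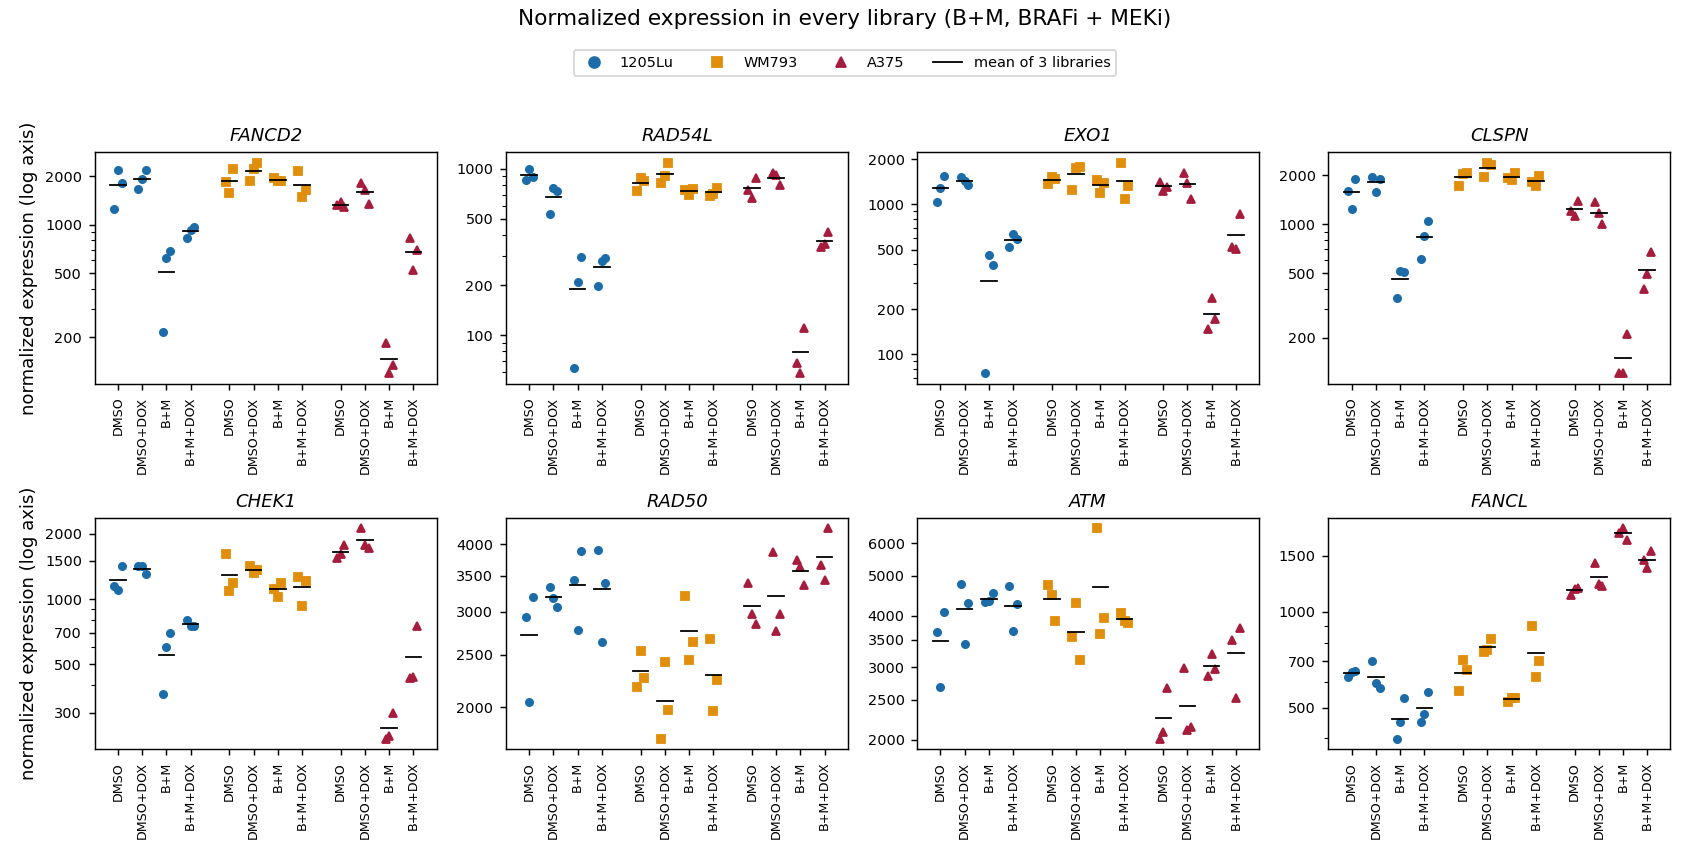
Normalized expression (log axis) in every library, by line and treatment, for FANCD2, RAD54L, EXO1, CLSPN, CHEK1, RAD50, ATM and FANCL, with the mean of 3 libraries as a bar. BRAFi + MEKi libraries of 1205Lu and A375 sit below DMSO for FANCD2, RAD54L, EXO1, CLSPN and CHEK1, those of RAD50 overlap DMSO in 1205Lu, WM793 and A375, and FANCL is higher in A375.

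Of the 29 calls in 1205Lu, 23 held in every setting and with each library left out, and of the 34 in A375, 28 did. The exceptions were BRCA2, FANCL, RBBP8, MUS81, MSH6 and PMS2 in 1205Lu and BARD1, RAD51B, RAD51C, XRCC3, MUS81 and ATR in A375. In WM793 4 of 10 did, namely FANCC, FANCE, DNA2 and TICRR. Without 1205Lu BRAFi + MEKi replicate 1, 24 genes were called in 1205Lu, all lower, with a median of -0.91. With libraries rescaled to the same total, the median of all genes in WM793 moved from 0.15 to 0.33, and the calls among the 43 genes moved from 4 higher and 6 lower to 8 higher and 3 lower. In A375 the same step moved the median of all genes from 0.06 to 0.21 and the calls from 3 higher and 31 lower to 7 and 29.

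The response to BRAFi + MEKi differed between lines by a test of the difference itself. Set against WM793, 24 genes responded lower in 1205Lu and none (0) higher, where 7.94% and 6.52% of all 26779 genes were called. Without 1205Lu BRAFi + MEKi replicate 1, 21 genes responded lower in 1205Lu. The most extreme was PSMC3IP, with a difference of -2.72 on the log2 scale (SE 0.34, adjusted p = 2.1e-06), followed by RAD51AP1 (-2.37, adjusted p = 0.00011) and RAD54L (-2.36, adjusted p = 0.00025). WM793 against A375 gave 28 genes with the higher response in WM793 and 3 with the lower, FANCL, ATR and PALB2, where 12.7% and 10.1% of all genes were called. CLSPN differed by 3.08 (SE 0.29, adjusted p = 8.7e-09), FANCD2 by 3.24 (SE 0.39, adjusted p = 2.9e-07) and MND1 by 5.99 (SE 0.80, adjusted p = 1.7e-06). Of the 31 calls, 25 held in every setting and with each library left out, and PALB2, RAD51D, PSMC3IP, FANCG, RBBP8 and TOPBP1 did not, PALB2 being lost without WM793 DMSO replicate 1 (adjusted p = 0.079) or BRAFi + MEKi replicate 2. Of the 24 calls between 1205Lu and WM793, 17 held.

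1205Lu and A375 differed for fewer genes. The response was higher, or less negative, in 1205Lu for MND1, FANCD2, DNA2, CHEK1, CLSPN and FANCC, where 8.08% of all genes were called. It was lower in 1205Lu for PSMC3IP, XRCC3, FANCE, FANCL and MUS81, where 6.65% of all genes were called. The calls of XRCC3, FANCC, FANCE and FANCD2 did not hold in every setting and with each library left out. CHEK1 differed by 1.51 (SE 0.28, adjusted p = 0.00032) and PSMC3IP by -1.67 (SE 0.34, adjusted p = 0.0010). Without 1205Lu BRAFi + MEKi replicate 1 the number of genes called rose from 11 to 20, with 16 higher and 4 lower.

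With DOX under BRAFi + MEKi, many of the genes were higher in A375 cells, 1 was called in 1205Lu and none (0) in WM793. In A375 cells 21 genes were higher and 0 lower than with BRAFi + MEKi alone, where 1.37% and 0.152% of all genes were called. By fold change alone, 18 of the 43 were higher by at least 2-fold and 6 by at least 4-fold, and the median log2 fold change was 0.73. Both counts include BARD1, which was not called (2.71, adjusted p = 0.16), and the shares of all genes at these sizes are not given here. With a library left out, BARD1, BRCA2 and BLM of the 6 came as low as 1.29, 1.73 and 1.86. Every library with DOX was above those without it for 28 genes and below them for 1, where 8.28% and 7.13% of all genes were. In 1205Lu cells TICRR alone was called among the 43 (0.199% of all genes were called higher and 0.135% lower), although 37 of the 43 values were above 0 (median 0.39), where 47.6% of all genes were, and 16 genes had an unadjusted p under 0.05, where 9.72% of all genes did. Without 1205Lu BRAFi + MEKi replicate 1 the count was again 1, and the median was 0.20. In WM793 cells none (0) was called (0.0951% of all genes higher and 0.109% lower), the median was -0.07, and 2 genes had an unadjusted p under 0.05, where 7.95% of all genes did. Without WM793 BRAFi + MEKi + DOX replicate 2 the count there was again 0, with a median of -0.01. These comparisons share the BRAFi + MEKi libraries with the comparison to DMSO, so the values of both stand side by side and their agreement or opposition is not a separate result.

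In A375 cells FANCD2 read 185, 119 and 135 with BRAFi + MEKi and 821, 526 and 698 with DOX added. The groups did not overlap, a rise by 2.21 on the log2 scale (SE 0.19, adjusted p = 4.5e-05). RAD54L went from 67.7, 58.9 and 111 to 338, 355 and 415, a fold of 4.78 (log2 fold change 2.26, SE 0.21, adjusted p = 7.5e-05). All libraries with DOX were higher. BRCA1 went from 390, 580 and 335 to 940, 1030 and 1383 (1.38, SE 0.19, adjusted p = 0.0011) and BRCA2 from 73.5, 44.5 and 68.6 to 171, 243 and 520 (2.18, SE 0.33, adjusted p = 0.0020), both without overlap. BARD1 read 155, 111 and 2499 with DOX against 57.4, 38.8 and 66.4 without, and with 1 library so far above the others its log2 fold change of 2.71 (SE 0.80) had an adjusted p of 0.16.

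The other calls in A375 lay outside the BRCA and mismatch repair groups. BLM rose by 2.23 (adjusted p = 0.00029), RAD51AP1 by 1.88 (adjusted p = 0.00017), XRCC2 by 1.83 (adjusted p = 0.00040) and EXO1 by 1.73 (adjusted p = 0.00061). MND1 read 44.0, 26.9 and 104 with DOX against 1.89, 0 and 6.95, above every library without DOX, with a log2 fold change of 4.16 at a pseudocount of 1 and 5.47 at 0.1. EME1, at 648, 687 and 601 against 166, 269 and 262, rose by 1.50 (SE 0.17, adjusted p = 0.00026). The Fanconi core genes FANCA and FANCB rose by 1.04 and 1.52 and the other 6 were not called, with FANCL at -0.28 (adjusted p = 0.30). Of the checkpoint genes, CLSPN rose by 1.81, TICRR by 1.50, CHEK1 by 1.05, CHEK2 by 0.99 and TOPBP1 by 0.52, while ATM (0.09) and ATR (0.16) were not called. RAD50 (0.08) and NBN (0.07) were not called, and MRE11 rose by 0.53 (adjusted p = 0.014).

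TICRR in 1205Lu cells read 128, 216 and 203 with BRAFi + MEKi and 413, 468 and 532 with DOX added, without overlap. Its log2 fold change was 1.39 (SE 0.20, adjusted p = 0.010), and leaving out replicate 2 or 3 of the BRAFi + MEKi + DOX group ended the call (highest adjusted p = 0.088). FANCD2 in the same cells read 214, 623 and 689 and then 831, 933 and 969, also without overlap, but it was not called (1.01 on the log2 scale, SE 0.34, adjusted p = 0.30). With DOX, 15 of the 43 genes in 1205Lu had every library above those without it and 0 had every library below, where 6.06% and 6.53% of all genes did. Same-numbered libraries of this comparison deviated together, and with the replicate number as a block 3 of the 43 genes were called in 1205Lu in place of 1, CLSPN among them (0.85, adjusted p = 0.14 without the block and 0.047 with it).

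In WM793 cells FANCD2 read 1953, 1862 and 1876 with BRAFi + MEKi and 2154, 1480 and 1652 with DOX, which overlap (-0.12, SE 0.16, adjusted p = 0.92). Complete separation upward with DOX was seen for 2 of the 43 genes and downward for 3, where 6.94% and 7.04% of all genes were. RAD54B had the smallest p among the 43 there, at 712, 656 and 634 without DOX and 475, 459 and 521 with it, lower in every library but not called (-0.46, SE 0.13, adjusted p = 0.28). RAD54B shares 3511 exon bases with FSBP. FANCL went from 521, 536 and 535 to 906, 623 and 703, higher in every library with DOX and also not called (0.47, SE 0.15, adjusted p = 0.34).

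Without A375 BRAFi + MEKi + DOX replicate 3, the highest library for 35 genes, 19 genes were called in A375, and with each of the 6 libraries left out in turn 17 to 22 were. Of the 21 calls, 16 held in every setting and with each library left out, and RAD54B, BRIP1, MRE11, CHEK1 and TOPBP1 did not.

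DOX without the inhibitors gave no call among the 43 genes in any line (0 in each). Unadjusted p was under 0.05 for 0 genes in 1205Lu (6.85% of all genes), 3 in WM793 (9.92%) and 1 in A375 (7.95%). These counts are no larger shares than those of all genes. The medians were 0.11, 0.07 and 0.13, and with array weights 1 gene was called in WM793. Values above 0 were more frequent among the 43 genes, with 38 of 43 in A375 (48.3% of all genes). There were 29 such genes in 1205Lu (47.0% of all genes) and 26 in WM793 (50.2%). Few genes of any kind were called in this comparison, with 0.00452% of all genes in each direction in 1205Lu, 0.190% higher and 0.322% lower in WM793, and 0.0164% and 0.0328% in A375. FANCD2 read 1824, 1638 and 1339 with DOX in A375 cells against 1319, 1387 and 1295 in DMSO, and RAD54L 937, 912 and 794 against 750, 666 and 876, which overlap for both.

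The DOX effect under BRAFi + MEKi was larger than that under DMSO for 8 genes in A375, where 0.439% of all genes were called, and smaller for 0 (0.0205% of all genes). These were RAD54L (difference 2.05 on the log2 scale, adjusted p = 0.0079), FANCD2 (1.96, adjusted p = 0.0066), CLSPN (1.88, adjusted p = 0.020), EXO1 (1.70, adjusted p = 0.030), RAD51AP1 (1.64, adjusted p = 0.023), FANCB (1.43, adjusted p = 0.024), EME1 (1.42, adjusted p = 0.021) and FANCI (1.07, adjusted p = 0.045). RAD54L and FANCD2 were called with every library left out and in every setting, and the count ran from 2 to 10 with libraries left out and was 6 without A375 BRAFi + MEKi + DOX replicate 3. MND1 had a larger difference (4.04, SE 0.87) that was not called (adjusted p = 0.066). No gene of the 43 was called in 1205Lu or WM793 (0 in each, as for all genes tested), where 4 and 2 had an unadjusted p under 0.05 (5.72% of all genes in each line), and 1 was called in 1205Lu with array weights.

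With DOX in both groups, BRAFi + MEKi + DOX against DMSO + DOX gave 21 genes lower in 1205Lu, 6 lower in WM793 and 23 lower in A375. Over all genes 13.2%, 15.1% and 14.8% were called lower in these lines. None (0) of the 43 was called higher in any line, where 15.1%, 16.7% and 16.2% of all genes were. With libraries rescaled to the same total, 4 were higher and 19 lower in A375, 1 and 3 in WM793, and 1 and 19 in 1205Lu. In A375, 2 were also higher with array weights, 1 with the replicate block and 1 with the filter at a mean of at least 10, and in 1205Lu 1 was higher with the replicate block. Without A375 DMSO + DOX replicate 1, 3 were higher in A375. The 6 in WM793 are no larger a share than that of all genes. This count was 9 without WM793 DMSO + DOX replicate 1 and larger still with array weights. Of the 21 in 1205Lu, 10 held in every setting and with each library left out, and 12 to 17 genes were called with each library left out in turn. Without WM793 BRAFi + MEKi + DOX replicate 2, 3 genes were lower and 1 higher in WM793, and without A375 BRAFi + MEKi + DOX replicate 3, 25 were lower in A375. FANCD2 in A375 cells read 821, 526 and 698 against 1824, 1638 and 1339, below every DMSO + DOX library (-1.24, SE 0.19, adjusted p = 0.00025). CHEK1 fell by 1.84 in A375 (adjusted p = 1.3e-05), at 431, 438 and 751 against 2119, 1783 and 1724. In WM793 cells TICRR was the most changed by p, at 692, 638 and 732 against 1409, 1392 and 1466 (-1.05, SE 0.11, adjusted p = 1.4e-05).

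The DOX effect under BRAFi + MEKi differed between WM793 and A375 for 10 genes. It was lower in WM793 for RAD51AP1, RAD54L, RAD54B, MND1, FANCD2, BLM, CHEK2, CLSPN and TICRR (0.706% of all genes called) and higher for FANCL (0.176% of all genes). CLSPN differed by -1.89 (SE 0.29, adjusted p = 0.00066), FANCD2 by -2.34 (SE 0.39, adjusted p = 0.00094) and MND1 by -4.20 (SE 0.80, adjusted p = 0.0039). The calls of MND1, FANCL and TICRR did not hold in every setting and with each library left out. With the replicate block, XRCC2, FANCA, FANCB, EME1 and CHEK1 were also called, each lower in WM793, and array weights gave still more calls. Between 1205Lu and WM793, TICRR alone was called (1.46, SE 0.27, adjusted p = 0.019), where 0.0822% of all genes were called higher and 0.0560% lower. The call was lost without 1205Lu BRAFi + MEKi + DOX replicate 2 or 3 or WM793 BRAFi + MEKi replicate 2 (highest adjusted p = 0.062) and with only the compared libraries fitted (adjusted p = 0.25), and 0 to 3 genes were called with a library left out. Between 1205Lu and A375, 0 of the 43 were called (0.105% of all genes higher and 0.0747% lower) and 11 had an unadjusted p under 0.05 (8.07% of all genes), while without 1205Lu BRAFi + MEKi replicate 1 there were 8, all lower in 1205Lu. RAD54L and MND1 were each called in 2 of the 12 fits with a library left out. RAD54L was also called with the replicate block (adjusted p = 0.029), and array weights gave more calls. The count for this pair of lines thus depended on that library and on the setting.

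Proliferation markers moved in the direction of the 43 genes with the inhibitors, and with DOX under them, in 1205Lu and A375 cells. In WM793 cells the markers moved further than the 43 genes. Median log2 fold changes there with BRAFi + MEKi were -0.26 for the markers and -0.03 for the 43 genes. With DOX in both groups they were -0.52 and -0.17. Over 12 such markers, the summed normalized expression ranged from 78782 to 89733 in 1205Lu DMSO libraries, from 9026 to 23132 with BRAFi + MEKi and from 37806 to 40526 with BRAFi + MEKi + DOX. In A375 the ranges were 67459 to 71763, 4174 to 8607 and 15231 to 28014, and in WM793 68525 to 77415, 53491 to 67122 and 47836 to 53157. With BRAFi + MEKi, 12 of the 12 were called lower in 1205Lu and in A375, and 4 lower and 1 higher in WM793. With DOX under the inhibitors, 4 were called higher in 1205Lu, 12 in A375 and 0 in WM793. For BRAFi + MEKi + DOX against DMSO + DOX, 12 were called lower in 1205Lu, 8 in WM793 and 12 in A375. DMSO + DOX libraries ranged from 91584 to 96022 in 1205Lu and from 74125 to 79826 in WM793. In A375 they ranged from 52381 to 89383, with replicate 3 the lowest. Of the 3 libraries that stood apart for the 43 genes, 2 did so here, with 9026 in 1205Lu BRAFi + MEKi replicate 1 against 23132 and 21633, and 28014 in A375 BRAFi + MEKi + DOX replicate 3 against 16275 and 15231. WM793 BRAFi + MEKi + DOX replicate 2 read 49614, between the 47836 and 53157 of its group. In bulk RNA, fewer cycling cells and less RNA of these genes per cell cannot be told apart, and the part of proliferation in the changes of the 43 genes was not tested.

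**Figure D4:**
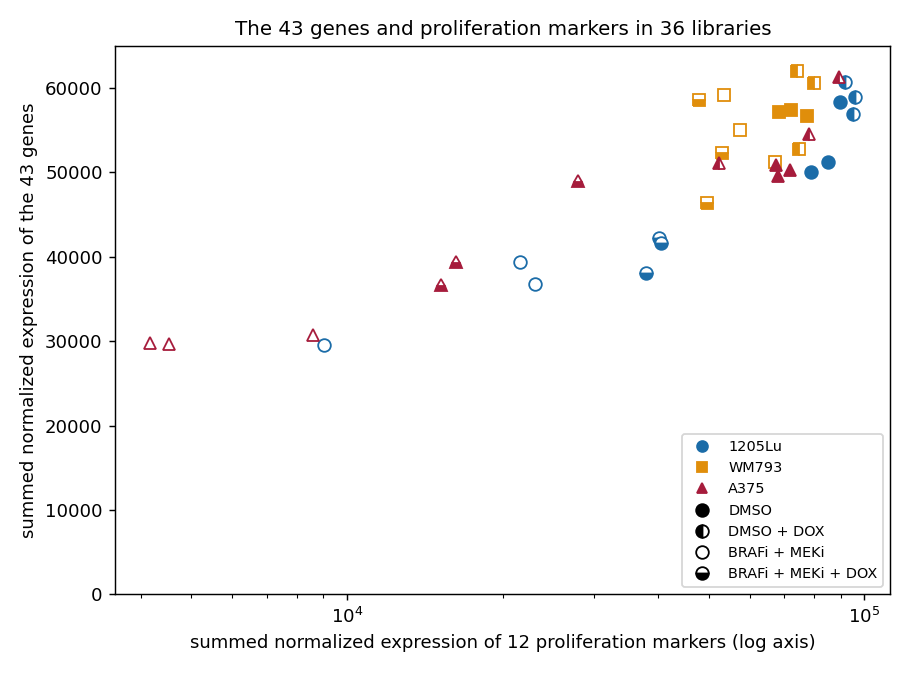
Summed normalized expression of the 43 genes against that of 12 proliferation markers (log axis) in each of the 36 libraries, by line (symbol) and treatment (fill). A375 BRAFi + MEKi libraries lie at 29646 to 30737 for the 43 genes and 4174 to 8607 for the markers, and WM793 libraries stay between 46338 and 62080 for the 43 genes in every treatment.

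A list of 48 other genes of the same pathways was read from the same fits. With BRAFi + MEKi 24 were lower and 2 higher in 1205Lu, 8 lower and 6 higher in WM793, and 22 lower and 5 higher in A375. Of all genes tested, 14.4% were lower and 16.5% higher in 1205Lu, 16.9% and 20.4% in WM793 and 19.0% and 20.5% in A375, so that the counts in WM793 are no larger a share than those of all genes. The medians of the list were -0.48, -0.02 and -0.35. POLQ, the polymerase of a backup end-joining route, was at the low end in 1205Lu (-2.47, adjusted p = 0.00021) and A375 (-3.24, adjusted p = 7.1e-07). The subunit of a translesion polymerase, REV3L, was at the high end in all 3 lines (0.98, 1.31 and 0.62). With DOX under the inhibitors 8 were higher in A375 (1.37% of all genes), POLQ the most (2.55, adjusted p = 0.00015), and 0 were called in 1205Lu and WM793.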

How the data were processed

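RNA-Seq libraries came from 36 samples, 3 per group, grouped by the treatment and cell line in their labels. Per the study's methods, the authors aligned reads to GRCh38 with GENCODE 35 annotation, estimated expression with RSEM and normalized it with DESeq2, and deposited 1 normalized expression signal per gene and library. These signal values are not counts, since low values are no whole multiples of 1 read, so depth is known only as an estimate and tests for counts were not used. Genes were named from GENCODE 44, which matched 60401 of 60656 identifiers.

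Genes whose mean reached 1 in any group were tested on log2(value + 1) with limma 3.58.1 in R 4.3.3 (moderated test with a mean-variance trend), with 12 libraries of a line fitted together (22144, 22074 and 24370 genes in 1205Lu, WM793 and A375) or all 36 for differences between lines (26779 genes). P values were Benjamini-Hochberg adjusted over all genes tested, with a threshold of 0.05. Fold changes are on the log2(value + 1) scale, which understates changes of low genes. The 43 genes, the role groups and the other lists were chosen with earlier results of these data known. Any of the 43 could be named, and of the other pathway genes only those at either end of the list in a comparison.

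The alternatives were a pseudocount of 0.1, no filter, a mean of at least 10, only the libraries compared, array weights, the replicate number as a block, libraries rescaled to the same total, and each library left out. Same-numbered libraries deviated together, with r over 0.1 for every number, only for BRAFi + MEKi + DOX against BRAFi + MEKi in 1205Lu (0.27, 0.11 and 0.11) and WM793 (0.25, 0.18 and 0.11), so the block counts as a pairing there. Simulated data took each gene's DMSO mean and its spread pooled over all groups of the line. Changes were put into few genes, all with a DMSO level well above the filter, so recovery in the real comparisons can differ. In the simulated data, log2 changes of 1 were called for 46, 60 and 68 of 100 genes in 1205Lu, WM793 and A375. Log2 changes of 2 were called for 86, 93 and 91, with 11 unchanged genes called in each line. Promoters came from RefSeq (GRCh38.p14).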

Additional observations from a re-analysis of the deposited data

Results flagged for a closer look

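Each result here is a difference between 2 effects that passed its own test. The DOX effect in A375 cells was larger under BRAFi + MEKi than under DMSO for 8 of the 43 genes, RAD54L with the largest difference among those called (2.05 on the log2 scale). The response to BRAFi + MEKi differed between 1205Lu and WM793 for 24 genes, PSMC3IP at the end of the range (-2.72), between 1205Lu and A375 for 11, with MND1 at 3.67, and between WM793 and A375 for 31, with MND1 at 5.99. The DOX effect under BRAFi + MEKi differed between 1205Lu and WM793 for 1 gene, TICRR (1.46), and between WM793 and A375 for 10, with MND1 at -4.20. MND1 was near 0 in the A375 BRAFi + MEKi libraries (1.89, 0 and 6.95), so the size of its differences depends on the pseudocount. TICRR was called in 9 of the 12 fits without 1 library and not with only the compared libraries fitted. No test of single outlying libraries was made within the groups of 3.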

How the results depend on the processing

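Counted over both directions together, the 7 alternatives left 154 counts of called genes within 1.5 times of those reported and moved 11. Of the results for named genes, 322 were rated the same, 3 moved, 4 weaker, 7 stronger and 0 reversed. The moved counts were as follows. For BRAFi + MEKi + DOX against BRAFi + MEKi in 1205Lu, 3 genes were called with array weights, 3 with the replicate block and 0 with only the compared libraries. Array weights also gave 1 for the difference of DOX effects in 1205Lu, 1 for DMSO + DOX in WM793, 13 for BRAFi + MEKi + DOX against DMSO + DOX in WM793, and, for the difference in the DOX effect between lines, 3 (1205Lu and WM793), 5 (1205Lu and A375) and 21 (WM793 and A375). Between 1205Lu and WM793 that count was 0 with only the compared libraries, and between 1205Lu and A375 it was 1 with the replicate block. The cause was not tested. The block moved no other count over both directions by more than 1.5 times, although for the DOX effect between WM793 and A375 the genes lower in WM793 went from 9 to 14, and for BRAFi + MEKi in 1205Lu those higher from 1 to 2.

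With each library left out, BRAFi + MEKi against DMSO gave 23 to 29 calls in 1205Lu, 6 to 11 in WM793 and 28 to 31 in A375. DOX under BRAFi + MEKi gave 0 to 2 in 1205Lu and 17 to 22 in A375. BRAFi + MEKi + DOX against DMSO + DOX gave 12 to 17, 3 to 9 and 18 to 25. The difference of DOX effects in A375 gave 2 to 10. Line differences in the BRAFi + MEKi response gave 21 to 25 (1205Lu and WM793), 8 to 20 (1205Lu and A375) and 27 to 31 (WM793 and A375), and those in the DOX effect 0 to 3, 0 to 8 and 9 to 12. DMSO levels gave 8 to 12, 9 to 13 and 19 to 23. Rescaling to the same total moved the split of higher and lower genes for BRAFi + MEKi from 4 and 6 to 8 and 3 in WM793 and from 3 and 31 to 7 and 29 in A375. It moved the DMSO level split between WM793 and A375 from 16 higher and 6 lower to 12 and 12, and between 1205Lu and A375 from 8 and 5 to 6 and 9. For BRAFi + MEKi + DOX against DMSO + DOX it moved the split from 0 and 6 to 1 and 3 in WM793 and from 0 and 23 to 4 and 19 in A375. With 3 libraries per group and no counts, changes of single genes could be missed. In the simulated data, part of the log2 changes of 1 and 2 were.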

Other observations

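In WM793 cells, where few of the 43 genes moved with BRAFi + MEKi, the list of 48 other pathway genes held a larger change. ERCC1, a subunit of the endonuclease that cuts at crosslinks and bulky lesions, read 11544, 10972 and 8041 in DMSO and 1895, 2171 and 1875 with BRAFi + MEKi. The groups did not overlap, and the log2 fold change was -2.35 (adjusted p = 8.0e-08 in limma's moderated test). DMSO + DOX libraries read 6357, 5341 and 4852, lower than all DMSO libraries (-0.88, adjusted p = 0.017), and this was the only call among the 48 in that comparison. In 1205Lu cells ERCC1 went from 3740, 5046 and 4193 to 1732, 2157 and 1826. The ERCC1 response differed between WM793 and A375 by -1.33 (adjusted p = 5.3e-05). FIGNL1, a factor that acts on the recombinase, had the largest DMSO difference of the list, lower in A375 than in WM793 (2.40, adjusted p = 8.8e-12) and than in 1205Lu (2.16, adjusted p = 7.6e-11).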
